A study of Mus musculus with 6 samples.

Results

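The genes described here are 10 interferon-inducible guanosine triphosphatases of the mouse, chosen by symbol as named members of their families: the immunity-related GTPases Iigp1, Irgm1, Irgm2 and Igtp, and the guanylate-binding proteins Gbp2, Gbp3, Gbp4, Gbp5, Gbp7 and Gbp9. They were found in the count tables by Ensembl identifier through the GENCODE M21 annotation. All 10 were present, among 54446 genes, and all 10 passed the filter on low counts, among 13172 genes tested. RNA was measured in 6 libraries of regulatory T cells (Treg cells, the Foxp3-expressing CD4 T cells that hold immune responses in check), sorted as live CD45+ CD4+ Foxp3-GFP+ cells from tumours of B16F10, a mouse melanoma line, grown under the skin. In 3 libraries, labelled Ythdf2 cKO, the genotype is Foxp3CreYthdf2fl/fl, with both Ythdf2 alleles floxed. In the 3 control libraries it is Foxp3CreYthdf2fl/+, so by genotype the controls also carry the Cre and a floxed allele, although their titles call them WT Control; the genotype labels are followed here. Cre is driven from Foxp3, so the deletion is aimed at Foxp3-expressing cells. The titles also name a cage: Ythdf2 cKO replicates 2 and 3 and control replicate 3 came from cage 2, and Ythdf2 cKO replicate 1 and control replicates 1 and 2 from cage 1. The labels give no age and do not tie each library to its own animal; p-values therefore measure the spread among these libraries, part of which may be technical.

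Both families are switched on by interferons, above all by interferon gamma, which acts through its receptor and the kinases Jak1 and Jak2, and later through Irf1. Their proteins bind guanine nucleotides, assemble on membranes and are best known for attacking the vacuoles in which bacteria and parasites live inside infected cells. Among the immunity-related GTPases, Iigp1 (also called Irga6) is an effector that loads onto such vacuoles, while Irgm1, Irgm2 and Igtp (also called Irgm3) are regulators that sit on the cell's own membranes and hold the effectors inactive there. Their transcripts are often used as a record of interferon exposure. Ythdf2 encodes a protein that binds mRNAs carrying N6-methyladenosine and promotes their decay, and the design asks how RNA levels in tumour Treg cells differ when it is deleted in them.

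Promoter windows are printed because these genes are induced by a common signal, and the motifs bound by its factors can be looked for in them. Windows of 300 bases, from 250 before to 50 after the annotated start, were taken from RefSeq (GRCm38.p6). They were kept for 7 of the 10 genes: Irgm1, Irgm2, Igtp, Gbp2, Gbp3, Gbp5 and Gbp7. Both strands were searched for the core of the interferon-stimulated response element, 2 blocks of GAAA with any 2 bases between them, and for the gamma-activated site, TTCNNNGAA, both known from promoters that interferons induce. In the sequences, read 5′ to 3′ on the gene's strand, capitals mark matches to either motif, and blocks of TTTC are the core read on the other strand.
Igtp: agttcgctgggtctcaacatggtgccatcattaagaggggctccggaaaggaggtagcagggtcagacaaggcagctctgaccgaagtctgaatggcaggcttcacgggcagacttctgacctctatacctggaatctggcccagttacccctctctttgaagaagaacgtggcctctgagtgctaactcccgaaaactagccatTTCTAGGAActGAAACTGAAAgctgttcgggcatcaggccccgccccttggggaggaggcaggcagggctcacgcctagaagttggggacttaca
Irgm2: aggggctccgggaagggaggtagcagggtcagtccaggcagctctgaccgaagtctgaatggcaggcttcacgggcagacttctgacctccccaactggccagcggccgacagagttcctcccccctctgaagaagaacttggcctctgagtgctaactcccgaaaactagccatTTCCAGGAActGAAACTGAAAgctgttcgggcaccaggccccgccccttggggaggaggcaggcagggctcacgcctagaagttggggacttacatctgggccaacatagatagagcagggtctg
Irgm1: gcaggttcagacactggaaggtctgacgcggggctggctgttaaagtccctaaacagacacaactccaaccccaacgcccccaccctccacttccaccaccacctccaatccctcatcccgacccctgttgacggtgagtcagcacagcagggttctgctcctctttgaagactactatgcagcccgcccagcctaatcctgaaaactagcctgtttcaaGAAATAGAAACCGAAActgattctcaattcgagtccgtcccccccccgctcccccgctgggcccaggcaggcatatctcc
Gbp2: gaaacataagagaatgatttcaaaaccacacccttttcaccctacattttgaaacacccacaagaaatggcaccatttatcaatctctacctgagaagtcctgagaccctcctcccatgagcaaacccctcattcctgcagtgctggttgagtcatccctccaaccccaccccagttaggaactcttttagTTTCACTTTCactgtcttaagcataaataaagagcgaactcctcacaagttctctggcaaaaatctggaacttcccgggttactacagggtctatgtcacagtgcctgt
Gbp7: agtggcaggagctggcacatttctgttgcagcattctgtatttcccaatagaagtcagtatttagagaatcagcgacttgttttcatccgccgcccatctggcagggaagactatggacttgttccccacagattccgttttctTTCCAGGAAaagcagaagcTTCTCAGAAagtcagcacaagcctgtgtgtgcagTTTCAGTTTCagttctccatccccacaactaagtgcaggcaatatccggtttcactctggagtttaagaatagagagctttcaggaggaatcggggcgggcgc
The windows lie at chr11:58199306-58199605 (Igtp, plus strand), chr11:58214727-58215026 (Irgm2, plus strand), chr11:48871371-48871670 (Irgm1, minus strand), chr3:142620413-142620712 (Gbp2, plus strand) and chr3:142530086-142530385 (Gbp7, plus strand).

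The core of the interferon-stimulated element was present in a window of 7 of the 7 genes kept. Over the whole table it was in 3.45% of the 32544 windows of that length, and in a window of 4.00% of the 26742 genes. These counts leave out Gbp4 and Gbp9, for which RefSeq held no window. They also leave out Iigp1, whose entry on chromosome 18 was removed after the search, and the search had listed no match to either motif for it. Chromosome 18 was not removed from the shares over all windows and genes. The 7 of 7 was thus reached after a gene without a listed match was taken out, and it does not describe all members. The same omission applies to the count for the gamma-activated site. The gamma-activated site was present in 4 of the 7 (Irgm2, Igtp, Gbp5 and Gbp7), against 8.33% of all windows. In Irgm1 the core occurred 2 times, at bases -30 to -21 and -24 to -15 from the start, so that the copies overlap. Gbp3 likewise held 2 overlapping copies, at -45 to -36 and -39 to -30. Igtp and Irgm2, neighbours on chromosome 11, had the same arrangement, a gamma-activated site followed by a core with 2 bases between them, and 247 of 271 aligned bases of their windows were identical (91.1%). Every core match in these windows lay between -64 and -15, except that of Gbp5, at -165 to -156. A match to the consensus of the kB site, the motif of NF-kB, was found in Gbp2 and in Gbp5, against 8.49% of all windows. Among the other genes of the pathway, a window with the core was found for 5 of 9 further GTPases, 2 of 10 genes of interferon gamma signalling, 4 of 14 other genes that interferon gamma induces (B2m, Bst2, Cxcl10 and Psme1) and 0 of 8 autophagy genes. These matches are letters in a window and do not show that a factor bound there in these cells.

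The libraries held 5602053 to 9960861 gene counts in the 3 labelled Ythdf2 cKO and 8923124 to 13602069 in the 3 controls, and the 10 GTPase genes together received 7049 to 18050 counts per library. Each of 12 Treg markers had counts in every library. They summed to 7907, 5933 and 4911 CPM (read counts scaled to library size with trimmed-mean factors) in Ythdf2 cKO replicates 1, 2 and 3. In control replicates 1, 2 and 3 they summed to 8012, 7100 and 4347 CPM. In control replicate 3 this was below the sum of the melanoma markers given next. Melanoma and macrophage transcripts differed widely and followed the cage. The 12 melanoma markers summed to 63.2, 2932 and 4040 CPM in Ythdf2 cKO replicates 1, 2 and 3, against 438, 620 and 5947 CPM in control replicates 1, 2 and 3. The 15 macrophage and monocyte markers summed to 11.96, 158 and 302 CPM in the Ythdf2 cKO libraries, with 9 of the 15 at 0 in replicate 1, against 43.5, 108 and 590 CPM in the controls. Markers of dendritic cells, neutrophils, CD8 T and NK cells, B cells, endothelial cells and fibroblasts, and erythroid cells each summed to at most 329 CPM in any library. Control replicate 3 also stood apart by mitochondrial ribosomal RNA, at 42.6% of its gene counts, the highest share of the 6, and Ythdf2 cKO replicate 1 by the lowest depth and the lowest melanoma and macrophage sums. Ythdf2 itself had 90.1, 104 and 104 CPM in libraries labelled Ythdf2 cKO and 124, 102 and 93.1 CPM in the controls, with a log2 fold change of -0.10 ± 0.16 (SE; edgeR quasi-likelihood test, adjusted p = 1), and it turned to 0.021 with scaling by total counts alone. The counts cover the whole gene and the labels do not name the exons removed, so groups are called by their labels.

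All 10 genes were expressed in these Treg cells, at very unequal levels. Levels between genes are compared as CPM per kilobase of merged exon, averaged over the 6 libraries. On this scale Igtp was far above the rest, at 87.3 ± 25.1 (SD, n = 6), higher than 97.4% of the genes tested. Its lowest library, at 60.8, exceeded the highest library of any of the other 9. The lead rests on the division by length: its merged exons span 2.02 kb, against 5.61 kb for Gbp7 and 7.49 kb for Gbp4. In CPM, Gbp7 and Gbp4 had higher means than Igtp in both groups. Merged exons pool all annotated transcripts of a gene, and which of them were expressed was not measured. Gbp3 (42.7 ± 6.85), Gbp7 (40.5 ± 8.89), Gbp2 (32.9 ± 5.62) and Gbp4 (27.4 ± 6.48) followed. Irgm2 (21.7 ± 4.76) and the effector Iigp1 (20.6 ± 8.19) came next, and then Gbp9 (13.5 ± 2.88), Irgm1 (11.1 ± 3.93) and Gbp5 (9.58 ± 2.43). Below Igtp, each gene's distance to the next was smaller than the larger of their SDs and their ranges overlapped. The genes share the same libraries, however, and this spread ignores that. Compared within each library, Gbp4 was above Irgm2 and Iigp1 above Gbp9 in every library, and the other neighbours below Igtp changed order between libraries. Even Gbp5, at the bottom, stood above 69.6% of the genes tested. Iigp1 was also the most variable of the 10 across libraries, with a coefficient of variation of 39.7% and a 3.33-fold span, while Gbp3 was the steadiest, at 16.04% and 1.57-fold.

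The 4 immunity-related GTPases were measured higher on average in libraries labelled Ythdf2 cKO, but none passed the test, and for each of them the groups overlapped. The effector Iigp1 (ENSMUSG00000054072, chromosome 18, 60376027 to 60392634, mm10, plus strand) had 205, 121 and 111 CPM in libraries labelled Ythdf2 cKO, against 61.6, 95.4 and 126 CPM in the controls. Its highest value was in Ythdf2 cKO replicate 1 and its lowest in control replicate 1, both of cage 1, and the 3 libraries of cage 2 lay between them. The means were 146 ± 51.6 CPM in libraries labelled Ythdf2 cKO and 94.3 ± 32.2 CPM in the controls (SD, n = 3 each), a log2 fold change of 0.63 ± 0.32 (SE; 95% interval -0.13 to 1.39; unadjusted p = 0.0919 and adjusted p = 1 in edgeR's quasi-likelihood test).

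Igtp (ENSMUSG00000078853, chromosome 11, 58199556 to 58207591, plus strand), a regulator also known to shape autophagy and lipid droplet membranes, had 269, 185 and 149 CPM in libraries labelled Ythdf2 cKO, against 123, 179 and 153 CPM in the controls. Again the same 2 libraries of cage 1 were at the ends, and the fold change was 0.40 on the log2 scale (interval -0.18 to 0.99). Irgm2 (ENSMUSG00000069874, chromosome 11, 58199618 to 58222782, plus strand), which in mouse macrophages restrains the caspase-11 inflammasome, had 99.7, 83.8 and 80.5 CPM in libraries labelled Ythdf2 cKO, against 47.1, 81.1 and 87.4 CPM in the controls. Here 5 libraries lay between 80.5 and 99.7 CPM and control replicate 1 alone lay well below them; the log2 fold change was 0.29 (interval -0.29 to 0.87), and without that library it was 0.058. Igtp and Irgm2 share 162 exon bases, 8.01% of the exons of Igtp and 4.39% of those of Irgm2, so reads there may be assigned to neither or to the wrong one. Irgm1 (ENSMUSG00000046879, chromosome 11, 48861968 to 48871683, minus strand), the regulator tied to mitochondrial and lysosomal quality control and, in mice, to the survival of lymphocytes, had 109, 46.4 and 55.02 CPM in libraries labelled Ythdf2 cKO, against 51.6, 59.6 and 63.4 CPM in the controls. For Irgm1 the difference rested on 1 library: Ythdf2 cKO replicate 1 was above every other library, and the other 2 labelled Ythdf2 cKO lay below 2 of the 3 controls. Its log2 fold change was 0.27 (interval -0.48 to 1.02) with all 6 libraries and -0.20 without Ythdf2 cKO replicate 1 (edgeR adjusted p = 1).

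**Figure D1:**
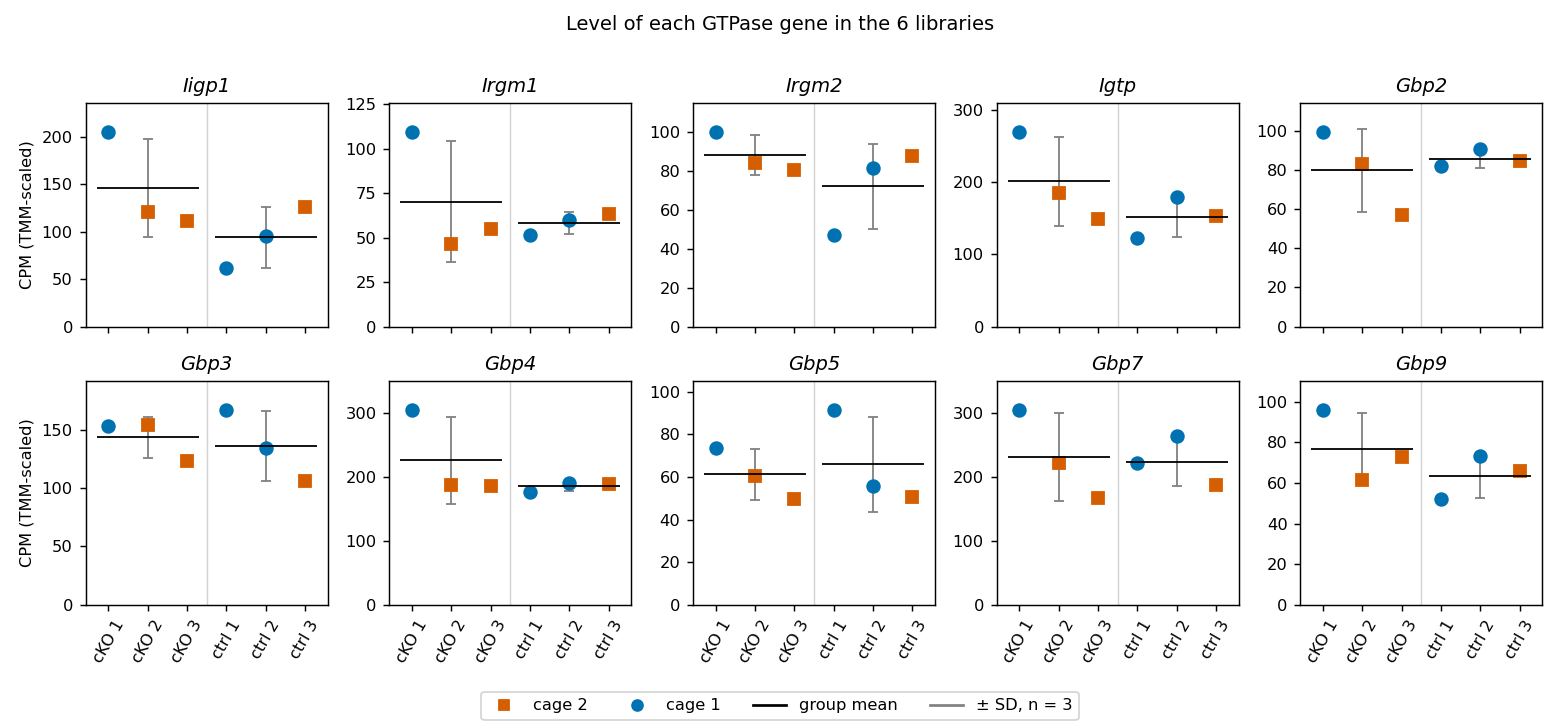
Level of each of the 10 genes in every library, in CPM on an axis that starts at 0, with Ythdf2 cKO replicates left of the control replicates, squares for cage 2 and circles for cage 1, and a line and bar for the group mean ± SD (n = 3). Ythdf2 cKO replicate 1 is the highest library for 8 genes, and the 2 groups overlap in every panel.

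Of the 6 guanylate-binding proteins, 4 were above 0 between the genotypes and 2 below, none passed the test (edgeR), and the groups overlapped for each. Gbp2 (ENSMUSG00000028270, chromosome 3, 142620602 to 142638008, plus strand), whose protein carries a lipid anchor at its end and coats parasite vacuoles, had 99.4, 83.0 and 57.1 CPM in libraries labelled Ythdf2 cKO, against 82.1, 90.6 and 84.4 CPM in the controls. The controls lay close together, inside the span of the libraries labelled Ythdf2 cKO, and the log2 fold change was -0.10 (interval -0.60 to 0.40), or 0.042 with scaling by total counts alone. Gbp5 (ENSMUSG00000105504, chromosome 3, 142493978 to 142522344, plus strand), which is likewise lipid-anchored and is linked in mice to inflammasome activation, had 73.5, 60.4 and 49.8 CPM in libraries labelled Ythdf2 cKO, against 91.3, 55.6 and 50.6 CPM in the controls. Control replicate 1, the lowest library for 5 of the other genes, was the highest for Gbp5. Its log2 fold change was -0.11 (interval -0.73 to 0.52), and it turned to 0.062 with cage as a term, 0.20 without control replicate 1 and 0.00080 with scaling by total counts alone.

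Gbp7 (ENSMUSG00000040253, chromosome 3, 142530342 to 142550149, plus strand), tied in mouse macrophages to the oxidative attack on engulfed bacteria, had 304, 222 and 167 CPM in libraries labelled Ythdf2 cKO, against 221, 263 and 186 CPM in the controls. In each genotype the libraries of cage 2 were the lower ones. Its log2 fold change between the genotypes was 0.05 (interval -0.52 to 0.61), and -0.21 without Ythdf2 cKO replicate 1. A pseudogene, Gm43802, covers 11.3% of the exons of Gbp7 and had 0 counts in all 6 libraries, so reads from that stretch may be missing from Gbp7. Gbp3 (ENSMUSG00000028268, chromosome 3, 142560026 to 142573209, plus strand), from the same cluster on chromosome 3, had 153, 154 and 123 CPM in libraries labelled Ythdf2 cKO, against 167, 134 and 106 CPM in the controls. It was highest in control replicate 1, like Gbp5, and lowest in control replicate 3, with a log2 fold change of 0.08 (interval -0.38 to 0.54).

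The 2 genes of the chromosome 5 cluster were, like Iigp1, Irgm2 and Igtp, highest in Ythdf2 cKO replicate 1 and lowest in control replicate 1. Gbp4 (ENSMUSG00000079363, chromosome 5, 105115767 to 105139586, minus strand) had 304, 188 and 186 CPM in libraries labelled Ythdf2 cKO, against 176, 190 and 189 CPM in the controls. Outside Ythdf2 cKO replicate 1 the other 5 libraries lay between 176 and 190 CPM, and the log2 fold change of 0.29 (interval -0.22 to 0.79) became 0.0093 without it. Gbp9 (ENSMUSG00000029298, chromosome 5, 105077630 to 105139539, minus strand) had 95.8, 61.2 and 72.9 CPM in libraries labelled Ythdf2 cKO, against 51.9, 73.0 and 65.8 CPM in the controls. Its log2 fold change was 0.27 (interval -0.24 to 0.78), and 0.072 without Ythdf2 cKO replicate 1. Gbp4, Gbp8 and Gbp9 overlap each other by 60 to 61 exon bases, which is 1.16% of the exons of Gbp9 and 0.814% of those of Gbp4.

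For the 10 genes together, the genotype comparison gave no call. Of the 10, 0 passed at an adjusted p of 0.05, and 0.0% of the 13172 genes tested did (edgeR quasi-likelihood test). DESeq2 and limma-voom also called 0 genes. At an unadjusted p under 0.05 there were 213 genes (1.62%), and 0 of the 10 were among them. By direction, 8 of the 10 were above 0 and 2 below, with a median log2 fold change of 0.27, against 6491 above, 6681 below and a median of -0.0049 over all genes tested. The 4 immunity-related GTPases had a median of 0.35 and the 6 guanylate-binding proteins one of 0.06. Groups that did not overlap were found for 0 of the 10, against 7.62% of all genes. The upper bounds of the intervals ran from 0.40 for Gbp2 to 1.39 for Iigp1 and the lower bounds from -0.73 for Gbp5 to -0.13 for Iigp1, so the missed threshold does not show equal levels. In bulk samples such as these, fewer cells expressing a gene and less of its RNA per cell cannot be told apart.

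**Figure D2:**
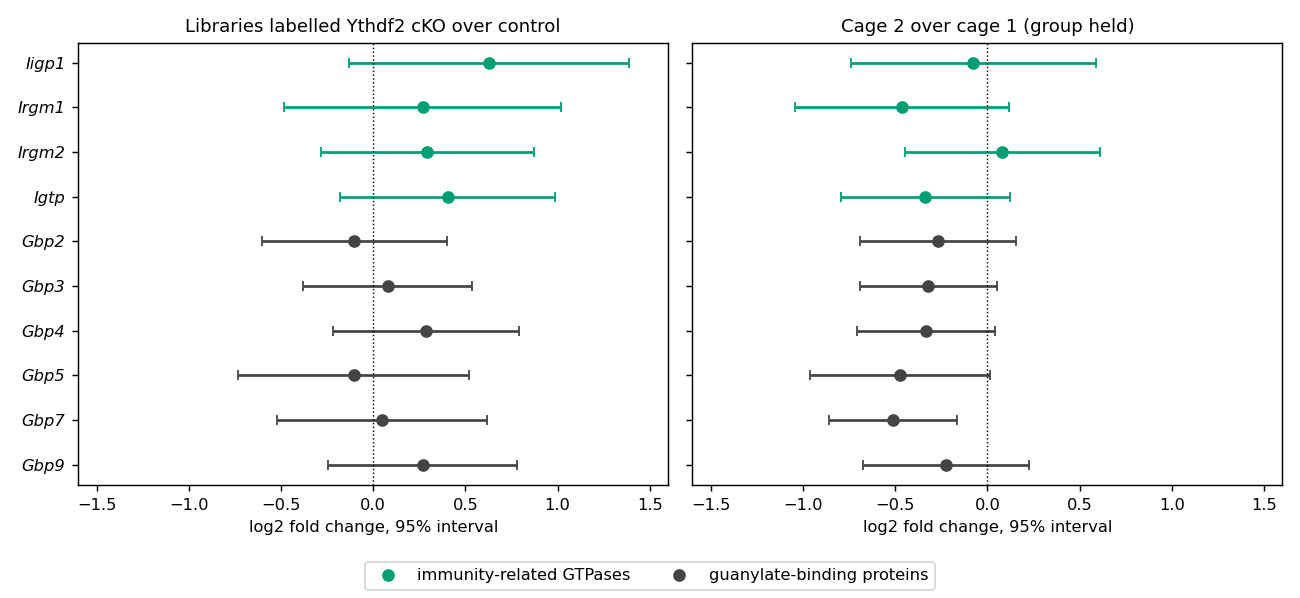
Log2 fold change of each gene with its 95% interval, from the edgeR fits over all genes: libraries labelled Ythdf2 cKO over control on the left, and cage 2 over cage 1 with the genotype held on the right. Every interval on the left spans 0, and on the right the interval of Gbp7 (-0.86 to -0.16) is the one that does not.

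Much of the difference between the genotypes lay in Ythdf2 cKO replicate 1. For the immunity-related GTPases control replicate 1 also stood apart, and both libraries are of cage 1. Ythdf2 cKO replicate 1 was the highest of the 6 libraries for 8 of the 10 genes, all but Gbp3 and Gbp5, where 25.2% of all genes tested had it highest. Control replicate 1 was the lowest for 5 (Iigp1, Irgm2, Igtp, Gbp4 and Gbp9), against 10.3% of all genes. Measured as log2 CPM from each gene's mean over the libraries, the immunity-related GTPases deviated by a median of 0.74, 0.11 and -0.09 in Ythdf2 cKO replicates 1, 2 and 3, and by -0.60, 0.01 and 0.10 in control replicates 1, 2 and 3. The guanylate-binding proteins deviated by a median of 0.37, -0.02 and -0.24 in libraries labelled Ythdf2 cKO and by -0.00068, 0.02 and -0.18 in the controls. Control replicate 1 was thus low for the immunity-related GTPases as a group and near the mean for the guanylate-binding proteins as a group. Without Ythdf2 cKO replicate 1, the median log2 fold change of the 10 genes was 0.016, against 0.27 with it, and without control replicate 1 it was 0.19. With control replicate 3 and Ythdf2 cKO replicate 1 both left out it was -0.035, but all remaining controls are then from cage 1 and all remaining Ythdf2 cKO libraries from cage 2. Ythdf2 cKO replicate 1 was also the library with the highest level of Foxp3, at 608 CPM, against 358 and 359 CPM in the other 2 labelled Ythdf2 cKO and 449, 496 and 325 CPM in the controls. Cd4 had 706, 548 and 445 CPM in libraries labelled Ythdf2 cKO, against 559, 718 and 412 CPM in the controls. Whether its content of melanoma and macrophage RNA or its depth played a part in its GTPase values was not tested.

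**Figure D3:**
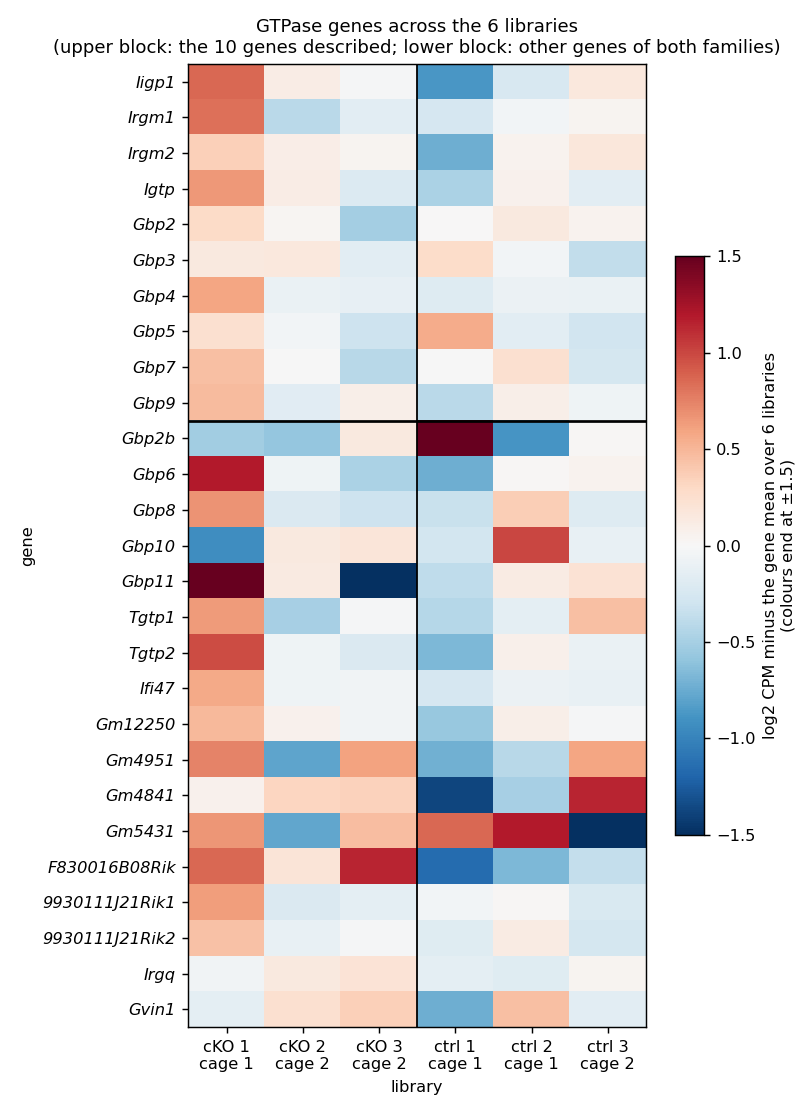
Log2 CPM of each gene minus its mean over the 6 libraries, on a colour scale that ends at ±1.5, with the 3 Ythdf2 cKO libraries left of the 3 controls, the 10 genes in the upper block and the 17 other tested genes of both families below. The column of Ythdf2 cKO replicate 1 is red for most genes, with medians of 0.46 in the upper block and 0.56 in the lower one, and that of control replicate 1 is blue for most, with medians of -0.23 and -0.37.

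Within the cages, the genotype difference of these genes did not point one way. In each cage it rests on 1 library of a genotype, and both of these stood apart. In cage 1 this is Ythdf2 cKO replicate 1, the library of lowest depth. In cage 2 it is control replicate 3, with 42.6% of its gene counts in mitochondrial ribosomal RNA. Whether these traits played a part was not tested. In cage 1, Ythdf2 cKO replicate 1 exceeded both controls for 8 of the 10 genes, against 36.2% of all genes tested. In cage 2, both Ythdf2 cKO libraries exceeded the control for 1 gene, Gbp3, against 34.4% of all genes, and both lay below it for 5 (Iigp1, Irgm1, Irgm2, Gbp2 and Gbp4), against 34.2%. For these 5, the Ythdf2 cKO libraries were thus below the control in cage 2 and above both controls in cage 1, a pattern that 10.2% of all genes shared. For Iigp1 the log2 difference of means was -0.12 in cage 2 and 1.42 in cage 1. For Irgm1 it was -0.33 in cage 2 and 0.98 in cage 1. Gbp3 ran the other way, with 0.37 in cage 2 and 0.03 in cage 1.

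The difference between the within-cage contrasts was tested as an interaction. Only 1 library stood in 2 of the 4 combinations of genotype and cage, Ythdf2 cKO replicate 1 and control replicate 3. Of the 10 genes, 0 passed, and 0.0456% of all genes tested did (6 genes). Iigp1 had the largest difference, -1.501 ± 0.35 on the log2 scale (SE; edgeR quasi-likelihood test, unadjusted p = 0.00247, adjusted p = 0.196). Irgm1 followed at -1.30 ± 0.31 (SE; adjusted p = 0.196) and Gbp4 at -0.75 ± 0.23 (SE; adjusted p = 0.253). These 3 were the ones with an unadjusted p under 0.05, all lower, where 3.25% of all genes were lower at that level. The call for Iigp1 depended on the tool and filter: it passed with DESeq2 (adjusted p = 0.0201) and without the filter on low counts (edgeR adjusted p = 0.00021), as did Irgm1 without the filter (edgeR adjusted p = 0.0155), while limma-voom gave 0.665 for both (adjusted p). Over the 10 genes the median was -0.65 and 8 were below 0, against a median of 0.17 over all genes. With scaling by total counts alone the median of all genes moved to 0.71, with Iigp1 at -0.96 and Irgm1 at -0.76.

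**Figure D4:**
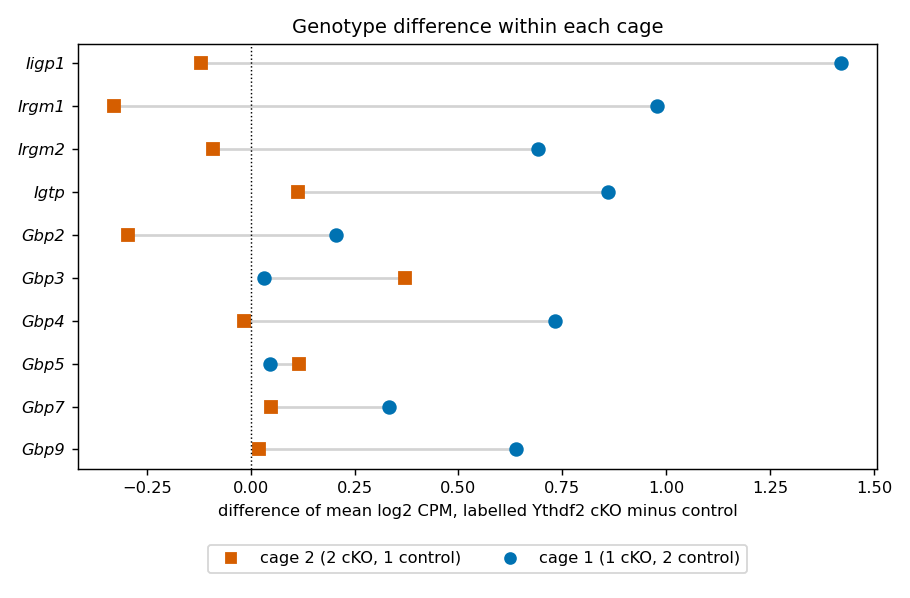
Difference of mean log2 CPM, libraries labelled Ythdf2 cKO minus control, within cage 2 (squares, 2 against 1 library) and within cage 1 (circles, 1 against 2 libraries). The 2 points of Iigp1 (-0.12 and 1.42) and of Irgm1 (-0.33 and 0.98) lie farthest apart, and for Gbp3 and Gbp5 the order of the cages is the opposite.

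Between the cages, 9 of the 10 genes were lower on average in cage 2, and 0 of the 10 passed the test with the genotype held (edgeR quasi-likelihood test), although of the 3 comparisons the cages had the most calls. Over all genes tested, 11.5% were called, with 7.83% higher in cage 2 and 3.68% lower. The median log2 fold change of the 10 was -0.33, against 0.013 over all genes. Groups that did not overlap were found for 0 of the 10, against 27.3% of all genes. Gbp7 came nearest, with 222, 167 and 186 CPM in cage 2 (Ythdf2 cKO replicates 2 and 3 and control replicate 3), against 304, 221 and 263 CPM in cage 1 (Ythdf2 cKO replicate 1 and control replicates 1 and 2). Its means were 192 ± 27.7 CPM in cage 2 and 263 ± 41.2 CPM in cage 1 (SD, n = 3 each), and the log2 fold change was -0.51 ± 0.15 (SE; edgeR unadjusted p = 0.00861, adjusted p = 0.0649). It was the 1 gene of the 10 with an unadjusted p under 0.05, where 26.5% of all genes passed that level and 11.5% were lower in cage 2. Gbp7 passed with DESeq2 (adjusted p = 0.0271), limma-voom (adjusted p = 0.0478), scaling by total counts alone (edgeR adjusted p = 0.0373), no filter (edgeR adjusted p = 0.00608) and without control replicate 1 (edgeR adjusted p = 0.0475), and its adjusted p over the alternatives ran up to 0.378.

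All 6 guanylate-binding proteins were below 0 between the cages, from -0.51 for Gbp7 to -0.22 for Gbp9, with Gbp5 at -0.47 (interval -0.96 to 0.01). Among the immunity-related GTPases, Irgm1 was at -0.46, Igtp at -0.34, Iigp1 at -0.08 and Irgm2 at 0.08, where Irgm2 turned to -0.25 with scaling by total counts alone. Without Ythdf2 cKO replicate 1 the median of the 10 was 0.023, and without control replicate 3 it was -0.56, where Irgm1 (-1.09, edgeR adjusted p = 0.0260) and Gbp4 (-0.68, edgeR adjusted p = 0.0409) passed. Treg transcripts as a whole were lower in cage 2: the 12 Treg markers summed to 5933, 4911 and 4347 CPM in its libraries, against 7907, 8012 and 7100 CPM in cage 1, and melanoma markers were higher in cage 2 as given above. Set against the mean log2 CPM of the 12 Treg markers of the same library, a scale chosen after the values were seen, all 10 genes were above 0 in cage 2, with a median of 0.36, Iigp1 at 0.64, Irgm2 at 0.80 and Gbp7 at 0.17. That scale moved the median of all genes tested to 0.70. It shifts every gene of a library by the same amount, so it could not change where the 10 genes stood against all genes. The sign of the 10 genes between the cages therefore depended on the scale. Relative to the Treg markers the genotype comparison kept its signs, with a median of 0.23.

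Other GTPases of both families were also read. Of 18, 17 were tested, 0 passed between the genotypes (edgeR), 14 were above 0 and 3 below, and the median log2 fold change was 0.22. The effector Tgtp2 (also called Irgb6) had 128, 62.0 and 55.6 CPM in libraries labelled Ythdf2 cKO, against 40.5, 68.0 and 60.3 CPM in the controls, with Ythdf2 cKO replicate 1 and control replicate 1 again at the ends and a log2 fold change of 0.54 ± 0.35 (SE). Ifi47 (also called Irgd) had 74.5, 48.2 and 48.6 CPM in libraries labelled Ythdf2 cKO, against 42.5, 47.4 and 46.5 CPM in the controls. Its groups did not overlap, as was so for 7.62% of all genes tested, and the nearest libraries stood at 48.2 and 47.4 CPM. Gm12250 was at 0.32 ± 0.25 (SE). F830016B08Rik, a low gene of the family, was the 1 of the 17 with an unadjusted p under 0.05 (edgeR), where 1.62% of all genes tested passed that level. It had 11.8, 7.43 and 14.3 CPM in libraries labelled Ythdf2 cKO, against 2.91, 4.06 and 5.05 CPM in the controls. In each cage its Ythdf2 cKO libraries lay above the controls, as was so for 36.2% of all genes tested in cage 1 and 34.4% in cage 2. Its log2 fold change was 1.48 ± 0.43 (SE; edgeR unadjusted p = 0.00958, adjusted p = 1), from 1.26 to 1.70 when 1 library was left out. Ythdf2 cKO replicate 1 was the highest library for 10 of the 17 and control replicate 1 the lowest for 8. In cage 2, both Ythdf2 cKO libraries exceeded the control for 8 of the 17 and both lay below it for 5, where the counts for the 10 genes were 1 and 5. In cage 1, Ythdf2 cKO replicate 1 exceeded both controls for 13 of the 17.

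The genes that carry the interferon gamma signal were read beside them. Of 14, 0 passed between the genotypes (edgeR), 10 were above 0 and 4 below, with a median log2 fold change of 0.14. Ifng, which encodes interferon gamma itself, had 11.96, 11.8 and 3.63 CPM in libraries labelled Ythdf2 cKO, against 3.18, 6.56 and 4.26 CPM in the controls, a log2 fold change of 0.96 ± 0.57 (SE). Irf1, the factor that carries the response to the GTPase genes, had 439, 223 and 195 CPM in libraries labelled Ythdf2 cKO, against 218, 261 and 220 CPM in the controls. Like the GTPases it was highest in Ythdf2 cKO replicate 1, and its log2 fold change of 0.29 became -0.16 without that library. Irf9 (0.30 ± 0.25, SE) and the receptor chain Ifngr1 (0.29 ± 0.29, SE) were the others with the smallest p. Between the cages 12 of the 14 were below 0, with a median of -0.44, and 0 passed (edgeR). This is on the CPM scale, on which all 12 Treg markers were also below 0 in cage 2, with a median of -0.64. Of these markers 8 were called lower (edgeR), against 3.68% of all genes tested. Relative to the Treg markers all 14 were above 0, with a median of 0.24, against 0.70 over all genes tested.

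Other genes that interferon gamma induces were divided in direction between the genotypes. Of 20, 15 were tested, 0 passed between the genotypes (edgeR), 9 were above 0 and 6 below, and the median was 0.036. Psmb10 and Psmb8, subunits of the immunoproteasome, were at -0.53 ± 0.32 and -0.16 ± 0.22, the chemokine gene Cxcl10 at -0.25 ± 0.29 and Cd274, which encodes PD-L1, at 0.17 ± 0.25 (log2 fold change ± SE). Between the cages 13 of the 15 were below 0 and 2 were called lower in cage 2, as were 3.68% of all genes tested. These were Psme1, a proteasome activator, which fell by 0.63 on the log2 scale (edgeR adjusted p = 0.0205), and Nmi, an interferon-induced gene, which fell by 0.54 (edgeR adjusted p = 0.0466).

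Processes in which these GTPases take part were also read, and none of their genes passed between the genotypes (edgeR). The autophagy conjugation machinery, which helps to place immunity-related GTPases on membranes, had 8 of 11 genes above 0 and a median of 0.061, with Atg12 at 0.34 ± 0.28, Atg3 at 0.18 ± 0.16, Gabarap at -0.16 ± 0.16 and the low gene Atg10 at -0.68 ± 0.69 (log2 fold change ± SE). The prenylation enzymes, a list of genes that attach lipid anchors of the kind on Gbp2 and Gbp5 or process proteins after attachment, had 4 of 6 above 0. Their median was 0.096, with Fnta at 0.21 ± 0.21, Pggt1b at 0.14 ± 0.29, Zmpste24 at -0.11 ± 0.23 and Fntb at 0.13 ± 0.78. Of the inflammasome effectors 8 of 10 were tested, 4 above 0 and 4 below, with a median of 0.033. Among them Nlrp3, a low gene, had 0.655, 0 and 1.45 CPM in libraries labelled Ythdf2 cKO, against 6.89, 4.40 and 5.21 CPM in the controls (edgeR unadjusted p = 0.0318, adjusted p = 1). Its groups did not overlap, as was so for 7.62% of all genes tested. Aim2, a sensor of DNA in the cytosol, was at 0.58 ± 0.29, Gsdmd at 0.15 ± 0.18 and Pycard at -0.13 ± 0.24 (log2 fold change ± SE). Between the cages Aim2 was the 1 call among these 3 lists, where 3.68% of all genes tested were called lower in cage 2. It fell in cage 2 by 0.67 on the log2 scale (edgeR adjusted p = 0.0398). As with Psme1 and Nmi, this is on the CPM scale. Relative to the Treg markers the log2 values of Psme1, Nmi and Aim2 were 0.054, 0.15 and 0.025.

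The 10 genes did not share 1 profile over the 6 libraries equally. Likeness was measured as the root mean square difference, in log2, between a gene's profile centred on its mean and the average profile of the 10. Gbp4 was nearest to their average (0.069), then Igtp (0.15) and Gbp9 (0.15), and Gbp5 (0.35) and Iigp1 (0.35) were farthest, the first for being high in control replicate 1 and the second for being low there. Among 9432 other genes with a mean of at least 5 CPM, whose median distance was 0.369, the nearest were Ddhd1 (0.030), Zfp646 (0.050), Cdk13 (0.051), Trp53i13 (0.052) and Foxj2 (0.053). Ddhd1, for example, had 69.1, 50.5 and 45.7 CPM in libraries labelled Ythdf2 cKO, against 42.2, 51.0 and 47.0 CPM in the controls. None of these 5 stood on a list of GTPase or interferon genes used here, and 6 libraries allow many genes to share a profile.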

How the data were processed

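Total RNA of 6 sorted Treg samples was made into libraries with a stranded kit, per the labels' protocols. For each library the authors deposited raw read counts per gene. The submitters' processing notes name Trimmomatic 0.39, HISAT2 2.1.0, HTSeq, DESeq2 and the build mm10. Neither annotation nor strand setting is stated in the sources used here, and overlapping or antisense genes may share reads. Reads aligned to several places (9.22% to 12.9% of records per library) stayed outside the gene counts, which can lower near-identical genes such as Tgtp1 and Tgtp2. How alike the transcripts of Igtp and Irgm2 are was not measured. Reads in no gene were 24.6% to 35.8% and ambiguous reads 1.43% to 2.21%, and spike-in rows held at most 1 count.

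Of 54446 genes, 54409 matched GENCODE M21, which gave symbols and coordinates. No 2 libraries agreed within sampling noise (lowest chi-square per degree of freedom 15.8). Genes were filtered with filterByExpr (minimum count 10, minimum total 15), scaled with TMM factors (0.713 in control replicate 3, 1.04 to 1.09 in the others) and tested with edgeR 4.0.16 (quasi-likelihood, R 4.3.3) over all 6 libraries. The genotype fit held the group alone, the cage fit added cage, and the interaction fit added their product. Benjamini-Hochberg adjustment ran over 13172 genes, with a threshold of 0.05. Fold changes are log2, Ythdf2 cKO over control or cage 2 over cage 1.

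The genes and lists were chosen with earlier results of these data known. All 10 genes were named, with Ythdf2, Foxp3, Cd4, Irf1 and Ifng, up to 4 genes with the smallest p from each list and the 5 nearest profiles. Results for another gene under this rule are left out. Psme1, Nmi and Gm43802 were added after their values were seen. The tests were checked on simulated counts. Alternatives were DESeq2 1.42.0, limma-voom (limma 3.58.1), other scalings, no filter or a mean of at least 5 CPM, leaving out mitochondrial, ribosomal RNA and haemoglobin genes, the replicate block, cage as a term, libraries left out and, added after the data were seen, centring on Treg markers.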

Additional observations from a re-analysis of the deposited data

How the results depend on the processing

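Between the genotypes, 0 of the 10 genes passed under any alternative run, and the median log2 fold change of the 10 lay between 0.19 and 0.43 except when libraries were left out: it ran from 0.016 to 0.35 with 1 library left out and was -0.035 with control replicate 3 and Ythdf2 cKO replicate 1 both left out. Genes called were 0, apart from 33 without the filter on low counts and 460 with those 2 libraries left out, where genotype and cage coincide. With both left out these log2 fold changes turned: Foxp3 -0.39, Cd4 -0.35, Irf1 -0.19, Irgm1 -0.12, Gbp3 -0.11, Gbp7 -0.31, Irf9 -0.094 and Cd274 -0.15. With scaling by total counts alone, which moved the median of all genes to 0.14, Ythdf2 (0.021), Gbp2 (0.042) and Gbp5 (0.00080) turned. With cage as a term Gbp5 (0.062), Psmb8 (0.020) and Fntb (-0.71) turned. The replicate numbers do not pair the samples: deviations of same-numbered libraries correlated at 0.41, -0.24 and 0.55 over genes, and the libraries numbered 2 come from different cages. The replicate block called 0 genes, gave a median of 0.21 and turned Fntb (-0.22). Leaving out 1 library turned genes whose ranges were -0.16 to 0.023 (Ythdf2), -0.24 to 0.18 (Foxp3), -0.19 to 0.21 (Cd4), -0.16 to 0.50 (Irf1), -0.20 to 0.48 (Irgm1), -0.30 to 0.083 (Gbp2), -0.042 to 0.25 (Gbp3), -0.26 to 0.20 (Gbp5), -0.21 to 0.23 (Gbp7), -0.43 to 0.045 (Cxcl10), -0.17 to 0.31 (Cd274), -0.068 to 0.26 (Pggt1b), -0.26 to 0.066 (Zmpste24) and -0.90 to 0.59 (Fntb). Iigp1, Irgm2, Igtp, Gbp4 and Gbp9 kept their sign when 1 library was left out (lowest 0.30, 0.058, 0.13, 0.0093 and 0.072). Between the cages, the number of genes called was 2349 with DESeq2, 2347 without the filter, 849 without the genotype in the fit and 660 to 1234 with 1 library left out, against 1516. Of the 10 genes, 1 passed with DESeq2, limma-voom, total counts or no filter, and 0 to 2 with 1 library left out. Their median was -0.66 with total counts, where the median of all genes was -0.32, ran from -0.56 to 0.023 with 1 library left out, and was 0.36 relative to the Treg markers, where that of all genes was 0.70. On that scale Iigp1 (0.64), Irgm1 (0.23), Igtp (0.36), Gbp2 (0.41), Gbp3 (0.37), Gbp4 (0.36), Gbp5 (0.23), Gbp7 (0.17) and Gbp9 (0.48) turned. Irgm2 turned with total counts (-0.25), and leaving out 1 library gave ranges across 0 for Iigp1 (-0.80 to 0.67), Irgm1 (-1.09 to 0.18), Irgm2 (-0.26 to 0.44), Igtp (-0.67 to 0.011), Gbp4 (-0.68 to 0.035) and Gbp9 (-0.50 to 0.065). For the interaction, genes called were 64 with DESeq2, 3 with RLE factors, 30 with total counts, 450 without the filter and 3 at a mean of at least 5 CPM, against 6, and Gbp2 (0.068) and Gbp7 (0.28) turned with total counts. The cause of these changes was not tested. With 3 libraries a group, wide intervals limit what can be called, and read counts are not independent molecules.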
